A study of Mus musculus with 4 samples.

Results

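Transcripts of 10 enzymes of glycolysis, Hk1, Hk2, Pfkl, Aldoa, Tpi1, Gapdh, Pgk1, Pgam1, Pkm and Ldha, were followed along the pathway, within their isozyme families and across cell states in sorted myeloid cells of the mouse brain. The genes were taken by symbol, and 10 of 10 were found among the 28692 genes of the count tables. Single-cell RNA-seq had been performed on cells of the cortex and hippocampus of 4 male C57BL/6J mice aged 90 days, with 1 library per mouse. All 4 libraries belonged to 1 group, named here cold Dounce, PBS (n = 4): each mouse had received phosphate-buffered saline through the tail vein (24 hours before sacrifice per the labels, another interval in the methods), and the tissue was broken up mechanically on ice, with no enzyme and no inhibitor of transcription or translation. The cells were FACS-sorted on CD45 and CD11b, surface proteins of myeloid cells, and a supplementary sample list adds CX3CR1 to the gate. No untreated or enzyme-digested cells were part of the group, so the questions here were whether the 4 mice agreed and how the enzymes differed between cells of a library. Replicates 1 to 4 were numbered in accession order, and the numbers only name the libraries.

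Glycolysis turns glucose into pyruvate in the cytosol and yields ATP and NADH, and lactate dehydrogenase can then reduce pyruvate to lactate and regenerate NAD. Several steps are served by more than 1 gene, whose products (isozymes) differ in kinetics and in the tissues that use them. Microglia, the resident macrophages of the brain, express Slc2a5 (a fructose transporter) and are known to raise glycolysis when stimulated. HIF-1 and MYC are transcription factors known to act on many glycolytic genes through short motifs of the kind ACGTG in their promoters.

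Cells were kept with 400 genes or more and no more than 10% of UMIs (unique molecular identifiers, each marking 1 captured RNA molecule) from mitochondrial genes, and 13002 of 13138 barcodes met this, with 3576, 3692, 2576 and 3158 cells and 7055985, 11267195, 5841671 and 9000804 UMIs in replicates 1 to 4. The median UMI count per cell was between 1905 and 2936, and 84 barcode sequences occurred in more than 1 library. A list of 9 microglial markers held between 47190 and 47915 CPM (counts scaled to the same library total) in the 4 libraries, against 1.54 to 1.70 CPM for 4 neuronal markers, 0.514 to 1.56 CPM for 4 astrocyte markers, 50.3 to 59.3 CPM for 4 oligodendrocyte markers and 0.171 to 0.709 CPM for 3 endothelial markers (2 of these 3 at 0). The 4 haemoglobin genes were at 0 in all libraries. A list of 10 markers of border macrophages and monocytes held 37.98 to 122.8 CPM. Replicate 4 stood apart in immediate early genes, transcripts that rise within minutes of a stimulus: 10 of them held 2665 CPM there and between 1025 and 1187 CPM in the other libraries. A supplementary note reports that 1 animal, the final mouse, called Sample 4 there, was at room temperature for longer after a clog in the sorter. The labels number the libraries otherwise and do not tie the note to a replicate.

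On GRCm38, 5 of the 10 members lie on chromosomes 6 and 7. Hk2 (chr6:82725025-82774454), Tpi1 (chr6:124810586-124814296) and Gapdh (chr6:125161715-125166467) are on the minus strand, and Ldha (chr7:46841475-46855627) is on the plus strand. The others are Hk1 (chr10:62268855-62379908, minus), Pfkl (chr10:77986947-78010083, minus), Aldoa (chr7:126795234-126800751, minus), Pgk1 (chrX:106187100-106203699, plus), Pgam1 (chr19:41911923-41918660, plus) and Pkm (chr9:59656368-59679375, plus). No other gene of the count table overlaps a member on the same strand, and 5 members (Hk1, Hk2, Aldoa, Tpi1 and Gapdh) overlap 1 gene each on the other strand. The 250 bases before a start of each of these 4 genes are printed here. These genes were chosen because Tpi1, Gapdh and Ldha rose with the other enzymes from cell to cell and for Hk2 no such rise was detected. The values are given further on. The sequences are from RefSeq on GRCm38.p6, 5′ to 3′ on the strand of the gene, and capitals mark every match to the motifs ACGTG and GCGTG on either strand (CACGT and CACGC are their reverse complements). The windows are chr6:82774455-82774704 for Hk2, chr6:124814159-124814408 for Tpi1, chr6:125165774-125166023 for Gapdh and chr7:46845554-46845803 for Ldha.
Hk2: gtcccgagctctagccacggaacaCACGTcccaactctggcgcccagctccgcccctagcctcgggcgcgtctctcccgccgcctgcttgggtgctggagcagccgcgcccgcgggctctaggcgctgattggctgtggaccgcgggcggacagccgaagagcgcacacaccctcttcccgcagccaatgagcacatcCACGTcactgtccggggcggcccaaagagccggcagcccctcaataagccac
Tpi1: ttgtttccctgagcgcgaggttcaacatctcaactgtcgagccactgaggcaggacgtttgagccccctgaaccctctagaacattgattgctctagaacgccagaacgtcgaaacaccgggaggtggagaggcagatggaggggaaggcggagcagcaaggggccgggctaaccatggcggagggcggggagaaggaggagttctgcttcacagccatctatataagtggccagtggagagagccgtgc
Gapdh: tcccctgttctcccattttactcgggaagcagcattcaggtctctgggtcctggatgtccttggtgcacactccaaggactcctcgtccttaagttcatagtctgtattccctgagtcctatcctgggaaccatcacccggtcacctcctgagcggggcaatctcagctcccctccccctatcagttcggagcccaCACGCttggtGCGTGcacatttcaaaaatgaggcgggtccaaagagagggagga
Ldha: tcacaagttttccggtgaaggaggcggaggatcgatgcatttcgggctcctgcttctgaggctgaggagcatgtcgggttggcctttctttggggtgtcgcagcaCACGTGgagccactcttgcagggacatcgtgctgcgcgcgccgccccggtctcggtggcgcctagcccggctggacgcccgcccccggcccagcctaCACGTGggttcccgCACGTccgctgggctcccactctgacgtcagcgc
The printed Ldha window holds matches at 3 places, 2 of them the palindrome CACGTG in which both strands match. Ldha has another window (chr7:46846832-46847081), with 1 match to GCGTG and 0 to ACGTG, and the window with most matches was printed. Hk2 and Gapdh hold 2 places each, and Tpi1 holds 0. Of 15 such windows for the 10 members, 11 (73.3%) hold at least 1 match, and 9 of 10 members have 1. The share over all 32851 windows of this length is 38.6%, and 41.5% of all 27025 genes with a window have a match. The matches are a description of letters only, and neither binding nor chromatin was measured.

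Gapdh, Hk2 and Aldoa were the most abundant members, and Pgk1 and Hk1 the least. These are UMI counts from 3′ ends, 1 per molecule, so they were not divided by transcript length, but capture may still differ between genes. The 10 members together held a mean of 2015 ± 90.6 CPM (SD, n = 4), with 2049, 2103, 2018 and 1889 CPM in the order of the replicates, or 0.201% of all UMIs, and the 3 most abundant took 63.2% of that sum. The most abundant member was 31-fold above the least. All levels given per library are sums over its cells, in which fewer cells with a transcript and less of it per cell cannot be told apart.

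At the entry of the pathway, Hk2 was counted far above Hk1. Hexokinase 2, which phosphorylates glucose and can bind the mitochondrial outer membrane, averaged 417 ± 67.2 CPM (SD, n = 4), with 483.0, 418, 441 and 324 CPM in the order of the replicates. Hexokinase 1, the form known for its high level in neurons, was counted at 18.6, 16.0, 16.9 and 14.3 CPM. Both genes were lowest in replicate 4. Pfkl, the liver-type subunit of phosphofructokinase, which catalyses the committed step, had 72.7, 77.4, 64.4 and 75.7 CPM (72.5 ± 5.78).

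In the middle of the pathway, levels of consecutive steps lay far apart. Aldoa, which splits the phosphorylated hexose, had 322.0, 369, 360.2 and 337 CPM (347 ± 21.5). Tpi1, which interconverts the resulting triose phosphates, had 97.1, 103, 89.5 and 97.3 CPM (96.7 ± 5.51). Gapdh, which makes NADH and is often used as a reference gene, had 521, 537, 499.5 and 481 CPM (509.7 ± 24.4), the highest member in 4 of 4 libraries. Pgk1, whose product makes ATP in the next reaction, stood far below it with 20.1, 20.9, 17.1 and 26.7 CPM (21.2 ± 3.99). Replicate 4 was the highest library for Pgk1 and the lowest for Gapdh and Hk2.

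In the lower pathway, Pgam1, which moves the phosphate within phosphoglycerate, had 119.6, 129, 125 and 124 CPM (124 ± 3.84). Pkm, which makes pyruvate and ATP, had 212, 238, 209.5 and 219 CPM (219.5 ± 12.9). Ldha, the subunit of lactate dehydrogenase that favours lactate production, had 183, 194, 195 and 189.98 CPM (190.5 ± 5.76). The range over the libraries was 1.07-fold for Ldha and 1.08-fold for Pgam1, against 1.49-fold for Hk2 and 1.56-fold for Pgk1.

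**Figure D1:**
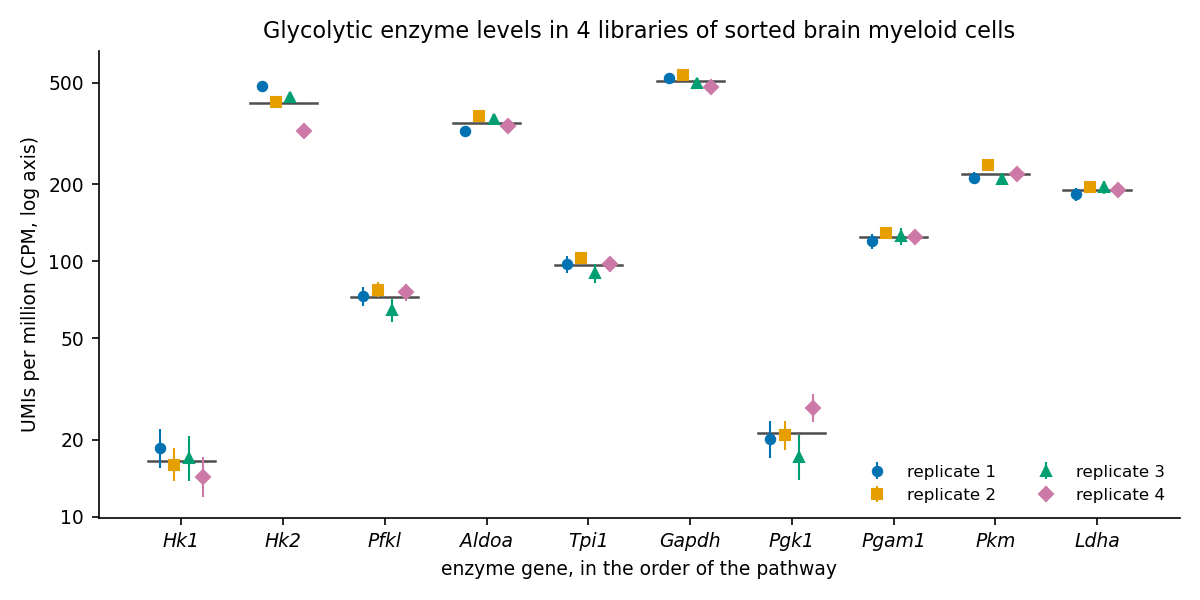
Levels in CPM (log axis) of the 10 glycolytic genes in the order of the pathway, 1 point per library with its exact Poisson 95% interval and a line at the mean of the 4 libraries. Gapdh, Hk2 and Aldoa lie at means of 509.7, 417 and 347 CPM, Hk1 and Pgk1 at 16.5 and 21.2 CPM, and Hk2 in replicate 4 sits below the other 3 libraries.

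Dixon's range test (two-sided, on log2(CPM + 1)) asks whether 1 library lies apart from the other 3, and it set a library apart for 0 of the 10 members. Among the 7656 genes averaging at least 10 CPM it did so for 354 (4.62%). On the log2 scale, the SD over libraries was 0.25 for Hk2, where counting alone gives 0.025, and 0.25 for Pgk1, where counting alone gives 0.12. It was 0.044 for Ldha and 0.044 for Pgam1, with counting SDs of 0.038 and 0.046, and the median over all genes tested was 0.11 (quartiles 0.073 and 0.16). Hk2 and Pgk1 thus spread more than the upper quartile of all genes, and Ldha, Pgam1 and Gapdh (0.069) less than the lower. Among genes averaging 50 to 1000 CPM the median was 0.085. The order of levels was Gapdh, Hk2, Aldoa, Pkm, Ldha, Pgam1, Tpi1, Pfkl, Pgk1 and Hk1. Neighbours in this order were taken as separated where the gap exceeded 2 SD over libraries and had the same sign in 4 of 4. By this rule Gapdh and Hk2 (log2 difference 0.30 ± 0.21 SD, 4 of 4), Hk2 and Aldoa (0.25 ± 0.27, 3 of 4) and Pgk1 and Hk1 (0.34 ± 0.38, 4 of 4) were not separated, and the other 6 neighbours were.

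Near-identical copies bear on the counts of 5 members. Over the last 500 bases of the transcript, Gapdh has 97 near-identical copies elsewhere in the annotation (at least 95% identity over at least 90 bases), of which 2 are in the count table, and Ldha, Pkm, Aldoa and Tpi1 have 6, 5, 2 and 1, of which only 1 copy of Aldoa (Aldoart1) is in the table. How the authors' counting divided reads among them is not given in the sources used here. Pkm encodes the M1 and M2 forms by alternative exons. Of its 9 coding transcripts in GENCODE M21, 2 end in the most downstream last exon (chr9:59678728-59679375), and a 3′ count per gene holds the forms together, so they were not separated.

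In most isozyme families nearly all or most UMIs came from 1 gene. Lactate dehydrogenase was the exception in that the B subunit gene was ahead of the member Ldha. These are shares of transcripts, and neither protein nor enzyme activity was measured. Ldhb, the subunit known from heart that favours the oxidation of lactate, made up 75.6%, 76.6%, 76.2% and 76.7% of lactate dehydrogenase UMIs in replicates 1 to 4 (76.3% ± 0.472, SD, n = 4), and Ldha the remaining 23.7% ± 0.472. In level, Ldhb had 567, 637, 625 and 624 CPM (613 ± 31.6), above every member. The testis form Ldhc had 0 UMIs.

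Hexokinase UMIs came from Hk2 by 89.1%, 88.0%, 88.4% and 83.3% (87.2% ± 2.64), from Hk3, a form found in blood cells, by 7.48%, 8.57%, 8.10% and 12.99% (9.29% ± 2.51), and from Hk1 by 3.47% ± 0.146. Replicate 4 had the lowest Hk2 share and the highest Hk3 share. In level, Hk3 had 40.5, 40.7, 40.4 and 50.6 CPM, and Dixon's test set replicate 4 apart.

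Pfkl made up 95.9% ± 0.5 of phosphofructokinase UMIs and the muscle form Pfkm 3.19% ± 0.143. Aldoa made up 99.4% ± 0.590 of aldolase UMIs, and the brain form Aldoc 0.263%, 0.407%, 0.142% and 1.43%, with 6, 17, 3 and 44 UMIs, so replicate 4 was the highest there as well. Markers of astrocytes, cells in which Aldoc is known to be abundant, were also highest in replicate 4 (1.56 CPM against 0.514 to 0.709), in libraries of cells sorted on CD45 and CD11b. Border macrophages and monocytes (defined further on as a cell state) also held Aldoc: 6 of their 97 aldolase UMIs (6.19%), 5 of them in replicate 4, against 57 of 10746 (0.530%) in cells of no state, and Aldoc was called higher in them (log2 difference 3.58, SE 1.07, adjusted p = 0.0138). In the cells of no state replicate 4 still had the highest share, 1.34% against 0.0986% to 0.396%. The part of either cell type in the Aldoc count was not tested. Pgam1 shared its family with Bpgm (10.9% ± 0.808), which makes and removes bisphosphoglycerate. Among the enolases, Eno1 made up 90.1% ± 0.362, the muscle form Eno3 7.46% ± 0.394 and Eno1b, a near-identical copy of Eno1 whose reads cannot be told apart with certainty, 2.40% ± 0.524. Pkm and Pgk1 were the only genes counted in their families, since Pklr and Pgk2 had 0 UMIs in every library. Dixon's test on the shares set a library apart for 0 of the shares in families with at least 2 genes at 1 CPM.

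**Figure D2:**
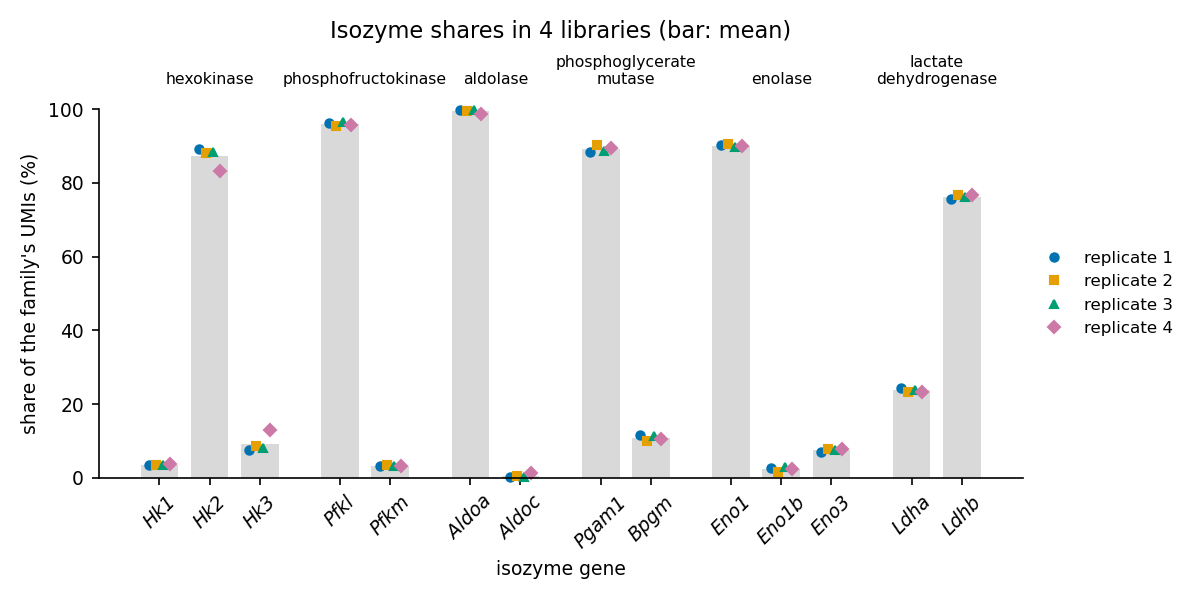
Share of each isozyme gene in the UMIs of its family (percent), 1 point per library and a bar at the mean of 4 libraries. Ldhb holds 76.3% of lactate dehydrogenase UMIs and Hk2 87.2% of hexokinase UMIs, with replicate 4 low for Hk2 (83.3%) and high for Hk3 (12.99%).

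The genes around the pathway showed which transporters and regulators these cells counted. Slc2a5, a fructose transporter characteristic of microglia, was the highest of 8 transporters at 679.7 ± 33.5 CPM, above Slc2a8 at 57.7 ± 3.43 CPM and the glucose transporter Slc2a1 at 37.9 ± 2.34 CPM. Among 18 regulators the highest were Txnip, an inhibitor of glucose uptake (349 ± 44.7 CPM), and Pdk1, which restrains pyruvate dehydrogenase (104.8 ± 3.09 CPM). Among 12 targets of HIF, P4ha1, a prolyl hydroxylase of collagen (281 ± 44.9 CPM), and Bnip3l, a mitophagy receptor (239.7 ± 17.7 CPM), led. The highest genes of the pentose phosphate route were Taldo1 (251 ± 10.5 CPM) and Pgls (124 ± 6.80 CPM), and those of the entry into mitochondria and the tricarboxylic acid cycle were Mpc1, a subunit of the mitochondrial pyruvate carrier (326 ± 13.9 CPM), and Mdh1, the cytosolic malate dehydrogenase (221 ± 11.6 CPM). A library stood apart for 0 of 5 transporters tested, 2 of 11 regulators, 1 of 6 HIF targets, 2 of 7 pentose phosphate genes and 2 of 20 genes of the last list.

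Within libraries, 6 of the 10 enzymes were higher in cells that were high in the other enzymes. Each member was left out in turn, cells with at least 1000 UMIs were thinned to 1000 (12737 cells), the UMIs of the other 9 members were added up, and cells at or above the 75th percentile of their library were compared with cells at or below the 25th for the member left out (edgeR quasi-likelihood test on sums per library, with the library as a block). Aldoa, Tpi1, Gapdh, Pgam1, Pkm and Ldha rose. The share of all genes called in the same 10 fits was between 0.244% and 0.475% (24 to 47 genes), given per member as 0.290% for Aldoa, 0.264% for Tpi1, 0.324% for Gapdh, 0.352% for Pgam1, 0.244% for Pkm and 0.264% for Ldha. The UMI sums per cell were small whole numbers with many ties, so the bounds differed between members. High cells held 2 UMIs or more for Aldoa, Gapdh and Hk2, and 3 or more for Hk1, Pfkl, Pgk1 and Pgam1. For Tpi1, Pkm and Ldha the bound was 3, but 2 in replicate 4. Low cells held 1 or fewer, but 0 for Hk2 and Gapdh in replicate 4. The Aldoa split thus held all 12737 cells (6072 high, 6665 low), and the Pgam1 split 3594 and 5896. The 10 splits share cells and are not independent. In each split and library the high cells had a higher median UMI count and a lower share of Malat1, a nuclear RNA. For Aldoa the median UMI counts were 1957, 3021.5, 2263 and 2860 in replicates 1 to 4, against 1885, 2862, 2183 and 2772. The median Malat1 shares were 5.62%, 5.247%, 5.468% and 5.209% against 5.907%, 5.496%, 5.696% and 5.43%. The part of these differences in the rise was not tested.

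Aldoa had 349, 401, 388 and 371 CPM in the high cells of replicates 1 to 4 and 297, 337, 339 and 309.8 CPM in the low cells. The groups did not overlap, and the log2 difference was 0.24 (SE 0.0291, adjusted p = 1.37e-07). Tpi1 had 117.6, 129, 116 and 103.5 CPM against 90.4, 90.7, 77.0 and 91.5 CPM (0.39, SE 0.0599, adjusted p = 0.000111). Its high cells were above the low cells in each library, and replicate 4 had the smallest gap, 0.18. The high cells of replicate 4 held 2 UMIs or more of the other enzymes, and those of replicates 1 to 3 held 3 or more. Gapdh had 553, 598, 535 and 525 CPM against 500.4, 486, 478 and 433 CPM (0.22, SE 0.0284, adjusted p = 7.74e-07). Pgam1 rose by 0.32 (SE 0.0539, adjusted p = 0.000161), Pkm by 0.27 (SE 0.0421, adjusted p = 4.79e-05) and Ldha by 0.23 (SE 0.0431, adjusted p = 0.00134), each higher in 4 of 4 libraries. These are differences of 1.16-fold to 1.31-fold.

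The other 4 members did not pass the test. Pgk1 (0.45, SE 0.121, adjusted p = 0.133) and Pfkl (0.27, SE 0.0692, adjusted p = 0.137) were higher in the high cells of 4 of 4 libraries. Both hexokinases were lower there in 4 of 4 libraries. Hk2 had 479.6, 415, 411 and 317 CPM in the high cells and 484, 421, 464 and 328 CPM in the low cells (-0.06, SE 0.0307, adjusted p = 0.588). This rested on 6082 UMIs in the high cells and 6484 in the low cells. Its high cells held 2 UMIs or more of the other enzymes, the same bound as for Aldoa and Gapdh, which rose. Hk1 had a log2 difference of -0.19 (SE 0.148, adjusted p = 0.799). In the promoters printed above, matches to the motifs were found both for Ldha and Gapdh, which rose, and for Hk2, for which a difference was not detected, and none was found for Tpi1, which rose. Among the members not printed, Aldoa, Pgam1 and Pkm, which rose, had a match in at least 1 window. So did Hk1, Pfkl and Pgk1, which did not pass. A link between motifs and the rise was not tested.

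Without replicate 2, the library with most UMIs, 3 of these enzymes (Aldoa, Gapdh and Tpi1) passed the test, and Pgam1, Pkm and Ldha had adjusted p = 0.203, 0.0901 and 0.202 with differences of 0.25, 0.22 and 0.21. With 2000 UMIs per cell Pfkl passed as well (0.46, adjusted p = 8.55e-05). Without the library as a block 0 of 10 passed, and the cause of this was not tested.

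**Figure D3:**
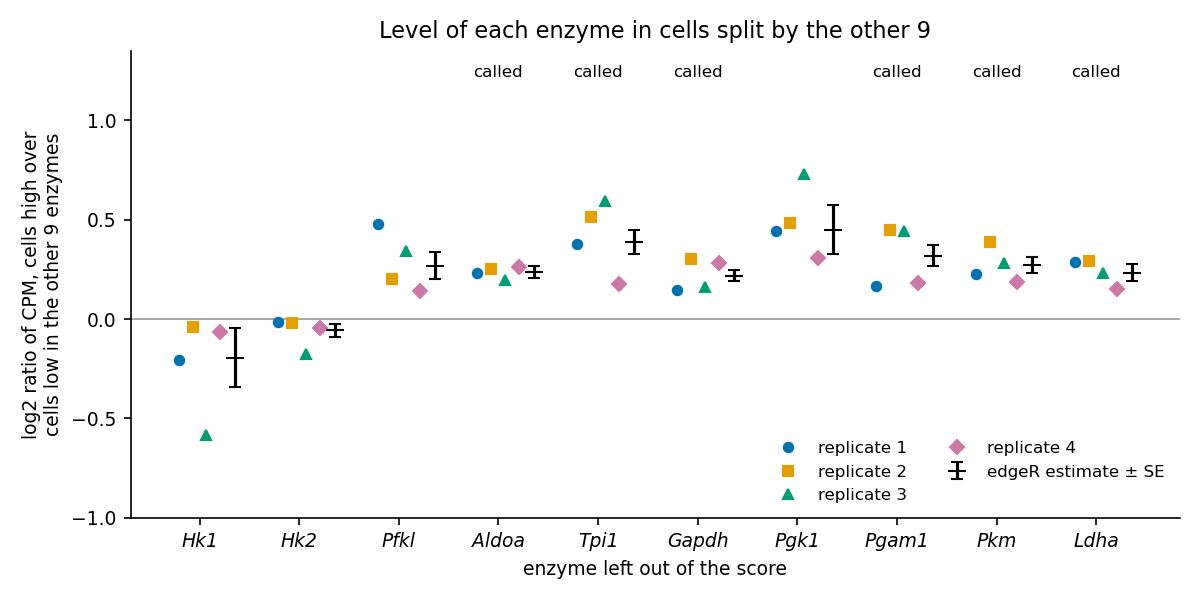
Log2 ratio of CPM between cells high and cells low in the other 9 enzymes, for each member left out, 1 point per library and a bar at the edgeR estimate with its SE. The points of Aldoa, Tpi1, Gapdh, Pgam1, Pkm and Ldha, all called, lie above 0 in 4 of 4 libraries, and those of Hk1 and Hk2 lie below 0 in 4 of 4.

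Cells were next divided by the sum of all 10 members to see which other genes differed. The high cells (1128, 1228, 772 and 851 per library) had median UMI counts of 1973.5, 3056.5, 2313.5 and 2933, and the low cells (1461, 1497, 1087 and 1440) had 1864, 2837, 2162 and 2760. The members themselves defined this split. Of 9582 genes tested, 36 were called (0.376%): the 10 members, 18 other genes that were higher and 8 that were lower in the high cells. Without replicate 2 the other genes called numbered 10 in place of 26.

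Mif rose most among the other genes named by the rule in use here (called, averaging at least 50 CPM and moving one way in 4 of 4 libraries). Macrophage migration inhibitory factor, a cytokine whose gene is a known HIF target, had 158.5, 180.5, 156.3 and 165.0 CPM in the high cells and 104, 119.8, 106.1 and 105 CPM in the low cells. The groups did not overlap, and the log2 difference was 0.60 (SE 0.0487, adjusted p = 1.45e-12), with 0.59 to 0.61 when any 1 replicate was left out. Eno1, the enolase that is not among the 10, had 303, 319, 314 and 310.3 CPM against 234, 246, 252.5 and 268 CPM (0.31, SE 0.0389, adjusted p = 3.12e-07). It rose in 4 of 4 libraries without overlap. Gpi1, glucose phosphate isomerase, differed by 0.12 (adjusted p = 0.567), Hk3 by 0.07 (adjusted p = 0.911) and Ldhb by 0.06 (adjusted p = 0.615), and did not pass.

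The other 8 named increases were smaller: Cstb, an inhibitor of cathepsins (0.26, adjusted p = 0.00212), Ccdc115, which takes part in assembly of the vacuolar proton pump (0.26, 0.0431), Sirt2, a cytoplasmic deacetylase (0.25, 0.00564), Psmc5, a proteasome subunit (0.24, 0.043), Tmsb10, which binds actin monomers (0.22, 0.0275), Cd63, a tetraspanin of late endosomes (0.18, 0.000137), Prdx1, a peroxidase (0.16, 0.0353), and Hsp90ab1, a cytosolic chaperone (0.12, 0.00624). Of these 8, only Cd63 kept its call with each replicate left out in turn, and only Cd63 was called with DESeq2 (adjusted p = 0.0199). Ccdc115 lost its call without any 1 replicate and was at 0.07 (adjusted p = 0.88) at 2000 UMIs, and Tmsb10 was at 0.14 (adjusted p = 0.316) without replicate 3. Below 50 CPM, Slc16a3, the exporter of lactate, rose from 34.9, 36.3, 42.0 and 40.8 CPM to 44.0, 50.6, 66.9 and 54.8 CPM (0.47, SE 0.0857, adjusted p = 0.000916). Lpl, lipoprotein lipase, rose from 3.56, 4.06, 4.49 and 5.10 CPM to 11.1, 19.0, 26.8 and 15.5 CPM (2.02, SE 0.199, adjusted p = 6.66e-10). The chemokine gene Ccl4 was called as well (1.77, adjusted p = 1.5e-06). It was higher in 3 of 4 libraries, most in replicate 3 (200.7 against 19.17 CPM). Slc16a3, Lpl, Ccl4 and Lgals3 (0.84, adjusted p = 0.0238) are named here after their values were seen. The list of lipid-associated genes, which holds Lpl, was higher in the high cells of 4 of 4 libraries, at 60.3, 67.0, 72.3 and 67.2 CPM against 29.2, 24.8, 35.1 and 44.7 CPM, and its part in these differences was not tested.

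Only 6 genes met the rule for decreases. The first 4 belong to antigen presentation by MHC class II: H2-Eb1 (-1.72, SE 0.227), H2-Aa (-1.62, SE 0.211), H2-Ab1 (-1.45, SE 0.169) and Cd74, the invariant chain (-1.22, SE 0.202), with adjusted p = 1.35e-06, 9.97e-07, 6.7e-08 and 0.000192. Cd74 had 180.3, 87.0, 252 and 113.8 CPM in the high cells and 192, 164, 259 and 984 CPM in the low cells. Replicate 4 set the size: without it the 4 differences were -0.58, -0.54, -0.56 and -0.35, still called (adjusted p = 0.00553, 0.00114, 6.97e-05 and 0.0352). With DESeq2 in place of edgeR, and in edgeR without the library as a block, 0 of these 4 were called (adjusted p = 1 for each). The border macrophage and monocyte markers held 42.7, 20.5, 104.4 and 52.4 CPM in the high cells and 32.8, 64.1, 93.0 and 174.8 CPM in the low cells, so they were lower in the high cells of replicates 2 and 4 and higher in those of replicates 1 and 3, and their part was not tested. Of the border markers, Pf4 (-1.21, adjusted p = 0.0431) and Ms4a7 (-1.645, adjusted p = 0.0352) were called lower. Both were lower in the high cells of replicates 2 and 4 and higher in those of replicates 1 and 3. Among cells in no state (defined next) the differences of the 4 antigen presentation genes were -2.30, -2.16, -1.81 and -1.98. The other decreases were Malat1, a nuclear RNA (-0.10, SE 0.00677, adjusted p = 2.06e-15), and P2ry13, a microglial purine receptor (-0.10, SE 0.0245, adjusted p = 0.0431), which lost its call without replicate 1, 2 or 3 (adjusted p = 0.247, 0.715 and 0.0998).

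Around the pathway, 1 of 6 transporters tested was called (Slc16a3, higher), 1 of 8 HIF targets (Mif, higher), and 0 of 12 regulators, 0 of 7 pentose phosphate genes and 0 of 20 genes of pyruvate entry and the tricarboxylic acid cycle. The medians of these lists on the log2 scale were 0.011, 0.15, 0.062, 0.036 and 0.033, and that of all genes was -0.00075. Slc2a1 (0.26, adjusted p = 0.478) and Hif1a (0.20, adjusted p = 0.531) did not pass.

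**Figure D4:**
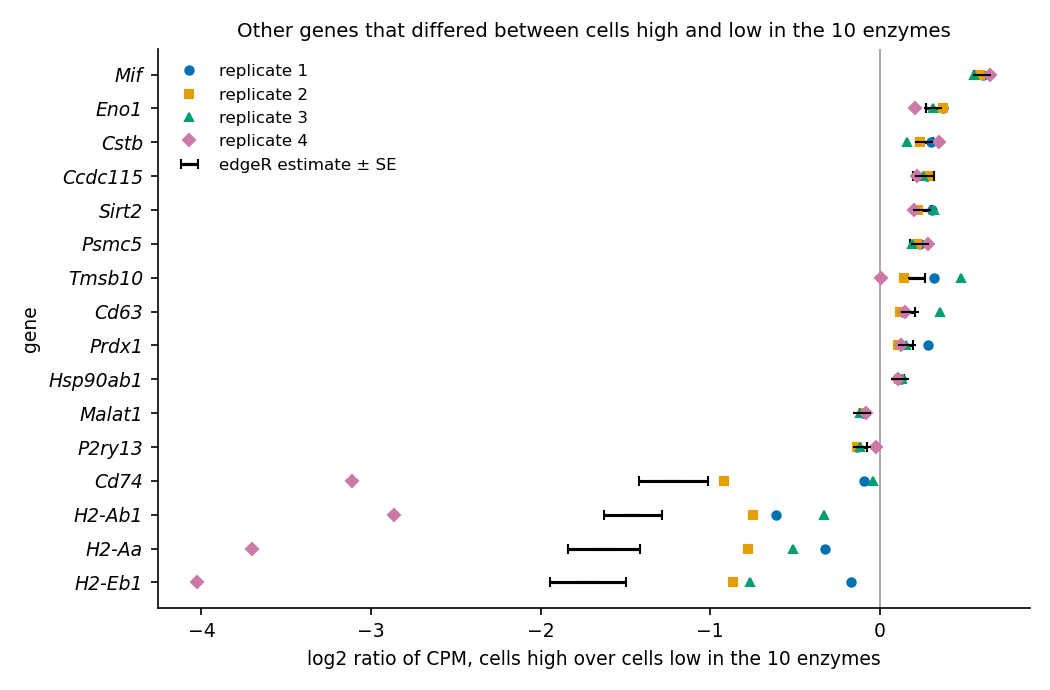
Log2 ratio of CPM between cells high and low in the 10 enzymes for the 16 other genes named, 1 point per library and a bar at the edgeR estimate with its SE. Mif lies near 0.60 in all 4 libraries, and the MHC class II genes lie below 0 in 4 of 4, with replicate 4 far below the others.

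Cell states were defined by marker lists that hold none of the enzymes. After thinning to 1000 UMIs, a cell entered a state with at least 3 UMIs of its list (5 for immediate early genes), and 11919 cells in no state served as the reference in their own library. There were 65 interferon-responsive cells (27, 15, 10 and 13 per library), 672 with immediate early genes (43, 69, 26 and 534), 54 with border macrophage or monocyte markers (11, 7, 10 and 26), 24 with chemokines (3, 4, 9 and 8), 22 with lipid-associated genes (5, 7, 5 and 5) and 2 proliferating cells. A library needed 10 cells to enter a test, and a test needed 3 libraries. In such small sums a filter on genes matters, so each state is given as fitted over all genes that pass edgeR's filter and, chosen after the data were seen, with a stricter filter. It kept genes whose mean CPM over the state and reference sums was worth at least 10 UMIs at the median total of the state sums.

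In the 672 immediate early cells 0 of 10 members were called, where 27 of 9832 genes (0.275%) were, and with the stricter filter 0 of 8 members where 34 of 2226 genes (1.53%) were. At an unadjusted p under 0.05 there were 0 members in both edgeR fits, and DESeq2 called 0. Every estimate was within 0.39 of 0 on the log2 scale, and the most precise were Gapdh (-0.06, SE 0.097) and Hk2 (0.02, SE 0.0995). Gapdh had 508, 393, 621 and 522 CPM in these cells and 523, 540.5, 499 and 472 CPM in the reference, so it was lower in replicates 1 and 2 and higher in replicates 3 and 4. Of the cells 534 came from replicate 4. Without that library the differences were -0.15 for Hk2, -0.28 for Gapdh and -0.52 for Pkm, none called.

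In interferon-responsive cells 0 of 10 members were called, where 216 of 9411 genes (2.30%) were, and 2 members (Aldoa and Tpi1) had an unadjusted p under 0.05. DESeq2 called 0 members. Without replicate 4, Aldoa was called (-0.96, adjusted p = 0.0431), against -0.59 (adjusted p = 0.219) with it. Hk2 had 486, 330.1, 589 and 192 CPM against 483, 419, 443 and 318 CPM in the reference (-0.39, SE 0.21, adjusted p = 0.496), lower in 2 of 4 libraries. The median over all genes in this fit was also -0.39. With the stricter filter the median was -0.0054, 40 of 609 genes (6.57%) were called, 0 of 4 members were called, and Hk2 was at -0.11. Ldhb was called in the first fit (-0.69, SE 0.191, adjusted p = 0.0165) and not with the stricter filter (-0.41, adjusted p = 0.212), with DESeq2 (-0.45, adjusted p = 1), with RLE factors (-0.43, adjusted p = 0.563) or without replicate 2, 3 or 4 (adjusted p = 0.241, 0.107 and 0.123). The Ldha share of lactate dehydrogenase UMIs was 23.8%, 40.6%, 52.6% and 44.8% in replicates 1 to 4, from 42, 32, 19 and 29 UMIs, and Ldha itself was not called (0.34, SE 0.254, adjusted p = 0.634, and 0.63, adjusted p = 0.202, with the stricter filter). DESeq2 called 123 genes here, and the share of calls that were higher was 53.2% with TMM factors, 93.8% with RLE factors and 98.4% with DESeq2.

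Hk2 was lower in the border cells of replicates 1, 3 and 4, the libraries that entered the test. It had 166, 165 and 168 CPM in the cells of replicates 1, 3 and 4, against 483, 443 and 318 CPM in the reference, resting on 5, 8 and 17 UMIs. The groups did not overlap, and the log2 difference was -1.36 (SE 0.323, adjusted p = 0.000656), or -1.38 with the stricter filter (adjusted p = 0.00405). In the first fit 806 of 9591 genes (8.40%) were called with a median of -0.46 over all genes, and in the second 414 of 681 (60.8%) with a median of -0.059, so a call in the second is common. The other 9 members were not called, among them Aldoa (0.08, SE 0.276), Gapdh (-0.11, SE 0.264) and Pkm (0.25, SE 0.302).

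Border cells differed from the reference in their makeup. The microglial markers held 8748, 18139 and 17981 CPM in the 3 libraries against 47393, 47465 and 48403 CPM in the reference. Replicate 2 had only 7 such cells and was left out of the fit. These cells had a median of 9932 UMIs, 37465 CPM of microglial markers and 408 CPM of Hk2. The part of this makeup in the difference was not tested. With a threshold of 2 UMIs, at which replicate 2 entered with 11 cells, Hk2 was at -0.62 (adjusted p = 0.22), and without replicate 3 it was at -1.29 (adjusted p = 0.121), so the call rests on few cells.

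Ldhb was also lower in border cells (-1.90, SE 0.314, adjusted p = 8.83e-08), with 0, 310 and 188 CPM in replicates 1, 3 and 4 against 574, 634 and 634 CPM in the reference. The Ldha share of lactate dehydrogenase UMIs was 100% of 7 UMIs, 51.6% of 31 and 52.5% of 40 in these libraries (exact 95% intervals 59.0% to 100%, 33.1% to 69.9% and 36.1% to 68.5%), and 24.1%, 23.2% and 22.8% in the reference. In replicate 2 it was 29.3% of 41 UMIs. Ldha itself did not pass (0.28, SE 0.312). At 2 UMIs, with replicate 2 in the fit, Ldhb was at -1.22 (adjusted p = 0.00107), or -1.11 with the stricter filter (adjusted p = 0.0452), still called.

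Lipid-associated cells, marked by genes such as Lpl, Cst7 and Spp1, differed in Pkm and Hk2 where they could be tested. At the threshold of 3 UMIs no library had 10 cells, so only values are given: Pkm had 452, 552, 823 and 527 CPM against 211, 239, 209.7 and 215 CPM in the reference, above it in 4 of 4 libraries, Hk2 had 581, 78.9, 253 and 65.8 CPM against 483, 419, 443 and 318 CPM, below it in 3 of 4, and the 10 members together had 3873, 3076, 3864 and 2568 CPM against 2053, 2107, 2017 and 1869. At 2 UMIs there were 54 cells (14, 13, 13 and 14), of which 13 also met the border threshold, and 2 of 10 members were called where 604 of 9421 genes (6.41%) were. With the stricter filter 4 of 5 members tested were called, where 335 of 599 genes (55.9%) were.

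At 2 UMIs Pkm had 434, 557, 536 and 467 CPM against 210.3, 239, 209 and 213 CPM in the reference (log2 difference 0.95, SE 0.238, adjusted p = 0.0021, and 1.04, adjusted p = 0.000565, with the stricter filter). Hk2 had 289, 178, 281 and 165 CPM against 483, 419, 442 and 325 CPM (-1.14, SE 0.27, adjusted p = 0.000816, and -1.05, adjusted p = 0.000603). Both moved in the same direction in 4 of 4 libraries and without overlap. Aldoa (0.58, adjusted p = 0.0146) and Gapdh (0.56, adjusted p = 0.00702) were called only with the stricter filter, as was Eno1 (0.69, adjusted p = 0.00968). Another enolase, Eno3, was called higher in the first fit (1.68, SE 0.524, adjusted p = 0.0259) and did not pass the stricter filter. With each replicate left out in turn, Hk2 and Pkm were called in both fits, whereas with the stricter filter Aldoa was not called without replicate 2 or 3 (adjusted p = 0.116 and 0.0897), Gapdh without replicate 4 (0.0534) and Eno1 without replicate 1 or 4 (0.0514 and 0.0872). Ldhb was lower in both fits (-1.09, SE 0.241, adjusted p = 0.000286), and Ldha was not called (0.51, adjusted p = 0.302). The median over all genes was -0.42 in the first fit and -0.013 in the second. The microglial markers held 23533 to 29011 CPM in these cells, against 47440 to 48668 CPM in the reference, and the border list 133.7 to 3557 CPM, highest in replicate 4. Their part in the differences was not tested.

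Chemokine cells (Ccl3 and Ccl4) are given by values only at 3 UMIs. Over 24 cells Gapdh had 46 UMIs (686 CPM, exact Poisson 95% interval 503 to 916, counting error only), Aldoa 37 (552, 389 to 761) and Hk2 20 (298, 182 to 461), with library ranges of 334 to 1141 CPM for Gapdh and 0 to 862 CPM for Aldoa. At 2 UMIs, in 3 libraries, 0 of 10 members were called where 31 of 9432 genes (0.329%) were, and 1 member had an unadjusted p under 0.05. With the stricter filter 0 of 3 members were called, where 2 of 543 genes were, and 2 of the 3 had an unadjusted p under 0.05 (Aldoa at 0.65, adjusted p = 0.275, and Gapdh at 0.41, adjusted p = 0.281).

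**Figure D5:**
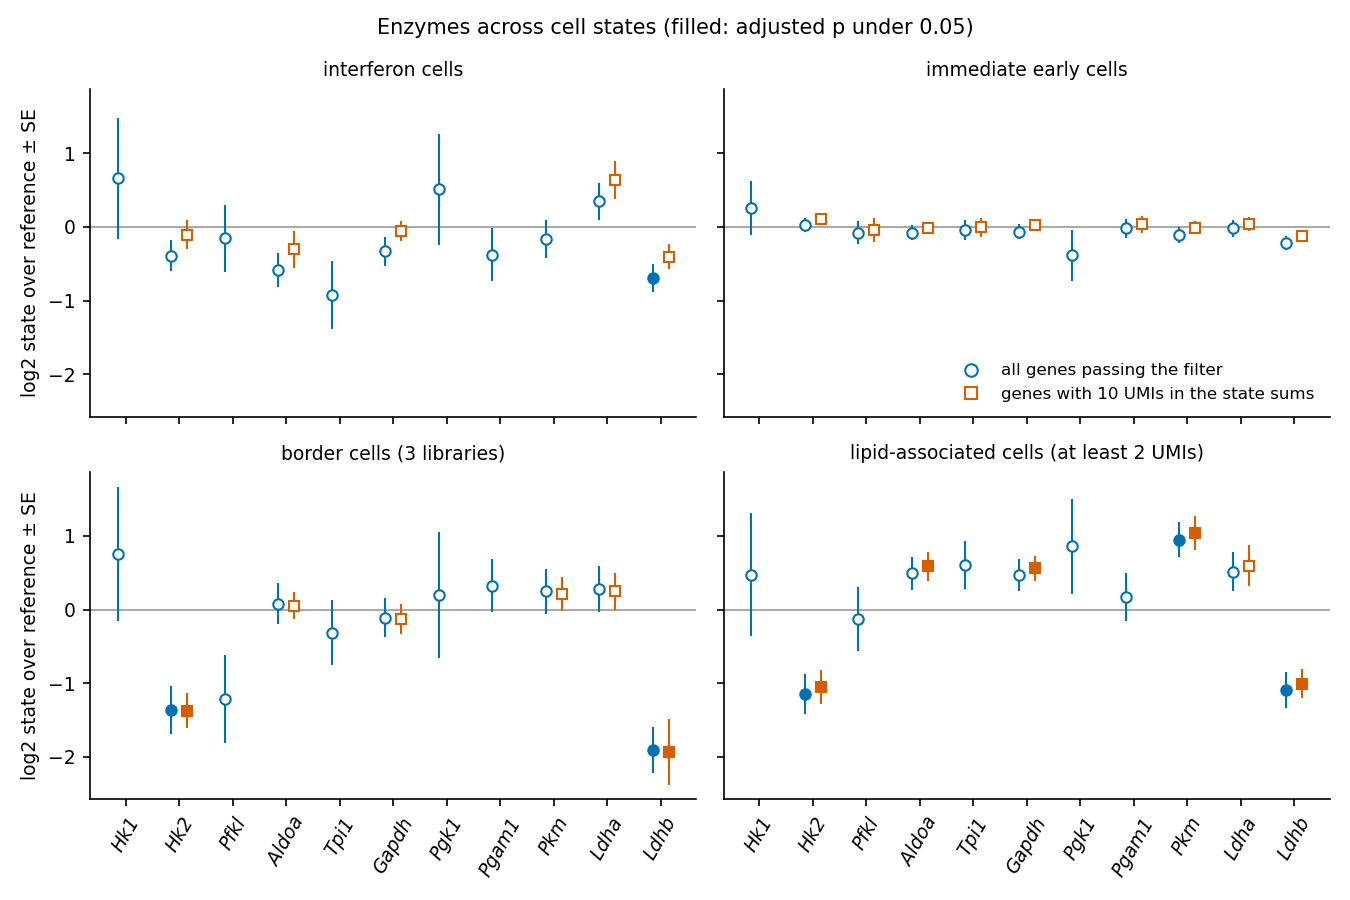
Log2 difference of each member and of Ldhb between cells of a state and reference cells of the same libraries, with its SE, as fitted over all genes that pass the filter (circles) and over genes that pass the stricter filter (squares, labelled 10 UMIs in the state sums), filled where called. Hk2 is at -1.36 in border cells and -1.14 in lipid-associated cells, and Pkm at 0.95 in the latter.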

How the data were processed

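Single-cell 3′ libraries (10x Genomics, version 2) of 4 mice were analysed, 1 library per mouse. The deposited values are raw UMI counts per gene and cell, which the authors made with Cell Ranger 2.2.0 on mm10 (GRCm38) with a filtered Ensembl annotation, with cells called by Cell Ranger. The methods describe combining the libraries with no depth normalisation, and the deposited matrices are 1 per library. How reads from near-identical gene copies were divided is not given in the sources used here. The members and all gene lists were chosen with earlier results of these data known, so they are not independent of them.

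Counts were summed over the cells of a library (or of a library and state, or library and side of a split) and given as CPM, with exact Poisson intervals, and shares with exact Clopper-Pearson intervals, at 95%. Intervals cover counting error only. The library totals of 5841671 to 11267195 UMIs set the precision of the levels, and the few cells of a state limit the rest. No doublet caller was run, and doublets were not removed. Dixon's range test (two-sided) on log2(CPM + 1) asked whether 1 library lay apart. States and splits were compared with the quasi-likelihood test of edgeR 4.0.16 (R 4.3.3), with filterByExpr, TMM factors and Benjamini-Hochberg adjustment over all genes tested, called at an adjusted p under 0.05. SE is the log2 difference divided by the square root of F. Each mouse gave both sums of a comparison, so the library was a block in these fits. The median over all genes lay below 0 in fits of small state sums, so a stricter filter, chosen after seeing the data, was added. A gene's mean CPM over the state and reference sums had to be worth at least 10 UMIs at the median total of the state sums. Genes named were the 10 members, isozyme genes averaging at least 1 CPM, for each pathway list the 2 highest and any with a library apart, and up to 10 increases and 10 decreases in the split by all 10 members, as given there. DESeq2 1.42.0 and other filters, depths, thresholds and left-out libraries were alternatives. Near copies were found with blastn 2.17.0 against GENCODE M21 transcripts.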

Additional observations from a re-analysis of the deposited data

Results flagged for a closer look

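Dixon's range test set 1 library apart from the other 3 in 9 of 55 genes tested around the pathway (16.4%) and in 2 shares of cells, where it did so for 4.62% of all genes averaging 10 CPM or more. Chance alone sets a library apart in about 1 of 20 such groups, and these were found among the isozyme genes, 5 pathway lists and the cell states other than proliferation, which was not tested. Replicate 4 was high for Hk3 (50.551 CPM, against 40.399 to 40.738 CPM in the others) and low for Mpc2, a subunit of the mitochondrial pyruvate carrier (106.21 CPM, against 122.48 to 125.14 CPM). Replicate 1 was low for Eno3 (20.125 CPM, against 23.623 to 24.052 CPM). Replicate 2, the library with most UMIs, was high for Pdk3 (17.839 CPM, against 14.888 to 15.023 CPM), Bnip3l (265.99 CPM, against 227.42 to 233.42 CPM), Rpe (22.1 CPM, against 19.332 to 19.515 CPM), Taldo1 (266.26 CPM, against 244.98 to 246.03 CPM) and Mdh1 (238.04 CPM, against 213.29 to 217.23 CPM), and low for Hif1a (48.637 CPM, against 53.409 to 54.422 CPM). Interferon-responsive cells made up 0.7725% of cells in replicate 1, the highest share, and cells with immediate early genes made up 17.33% in replicate 4. Of the 10 glycolytic enzymes, 0 had a library apart.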

How the results depend on the processing

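Of 100 alternative counts of calls or of libraries apart, 75 stayed within 1.5 times of the count reported, 20 were lower and 5 higher. Of 676 alternative log2 differences of single genes, 40 had the opposite sign of the reported value, and 0 of these 40 were called in either fit. The cause was not tested. Among cells with at least 1000 genes, 3 isozyme shares had a library apart (Hk2, Hk3 and Pfkl) in place of 0. Interferon cells called 40 genes with the added filter, 123 with DESeq2 and 67 with a lower threshold and that filter, against 216, and 136 to 169 with a replicate left out. The members called there were 0 to 1 with a replicate left out (Aldoa without replicate 4, -0.96, adjusted p = 0.0431 by edgeR). Immediate early cells called 11 genes with DESeq2, 44 with no expression filter and 54 with a lower threshold, against 27. Border cells called 414 genes with the added filter, 495 with DESeq2, 425 with a lower threshold and 322 with both, against 806, and 336 to 710 with a replicate left out. Hk2, the 1 member called in border cells, was called in 0 fits with a lower threshold, with or without the added filter, and the count was 0 to 1 with a replicate left out. The genes that moved with the pathway numbered 6 with DESeq2, 12 with wider groups of high and low cells and 47 at 2000 UMIs, against 26, and 10 to 37 with a replicate left out. The enzymes that rose with the others numbered 3 to 6 with a replicate left out, against 6.

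Each mouse gave both sums, so the library was the replicate block. Without the replicate block, 0 of these 6 enzymes and 2 of 26 other genes were called, and states called 248 (interferon), 23 (immediate early) and 1161 (border) genes. States with thresholds 2 UMIs higher, or at 2000 UMIs with doubled thresholds, were not run, since under 3 libraries had 10 cells. The few cells per state limit depth: the border result for Hk2 rests on 5, 8 and 17 UMIs.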
